A study of Mus musculus with 67 samples.

Results

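The genes described here encode chemokines and alarmin cytokines of the intestinal epithelium, and they were followed across organoid media and irradiated crypts of the mouse. They were taken by name as the 10 members Cxcl1, Cxcl2, Cxcl5, Cxcl16, Ccl20, Ccl25, Ccl28, Il18, Il33 and Tslp, out of 29579 genes in the table, and each of the 10 was found in it. Chemokines are small secreted proteins that bind G protein-coupled receptors on leukocytes and direct where those cells move. Alarmins are cytokines that epithelial cells hold ready or make on damage, and the IL-1 family members IL-18 and IL-33 and the short-chain cytokine TSLP act on lymphoid and myeloid cells of the mucosa. In the small intestine the epithelium is known as a source of CCL25, which draws CCR9+ lymphocytes to this segment of the gut, and of CCL20, which draws CCR6+ cells to the follicles.

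Proximal small-intestinal crypts of 6- to 12-week-old mice were grown as organoids in 49 libraries. The ENR condition (7 libraries) held EGF at 50 ng/mL, Noggin at 100 ng/mL and R-Spondin 1 at 500 ng/mL. The 8C condition (7 libraries), in which the study grew its Hyper-organoids, held 8 components, namely LDN193189 (a BMP receptor inhibitor, 0.2 µM), GSK-3 Inhibitor XV (0.1 µM), Pexmetinib (an inhibitor of p38 and Tie2, 1 µM), VPA (valproic acid, a histone deacetylase inhibitor, 500 µM), EPZ6438 (an EZH2 inhibitor, 2 µM), EGF (50 ng/mL), bFGF (20 ng/mL) and R-Spondin 1 conditioned medium (10%). Components were withdrawn from 8C in the conditions 8C-V (without VPA, 6 libraries), 8C-E (without EPZ6438, 7), 8C-VE (without both, 7), and 8C-bFGF, 8C-EGF, 8C-GSK3i and 8C-Pex (without the named component, 3 each). VPA and EPZ6438 were added to ENR in ENR+VE (3 libraries), at doses that the labels do not give. The other 18 libraries came from small-intestinal crypts of 8-week-old female mice, with 2 libraries each from unirradiated mice (Normal), from mice 1, 2, 3 and 5 days after 12 Gy of irradiation (IR), and from irradiated mice on the same days that had received both VPA, at 40 mg/kg, and EPZ6438, at 0.6 mg/kg, by daily gavage (IR+VE). The labels do not tie a library to a mouse or culture. The study's figure legends count its replicates of this kind in mice, and for organoid media they count fewer mice than a medium such as 8C has libraries, so some organoid libraries may share a mouse. The p-values below measure the spread between these libraries, which may be technical.

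Values are TPM (a transcript abundance relative to the library total), which are scaled by transcript length and can be set side by side between genes of one library. A member was called changed in a comparison when limma gave an adjusted p below 0.05 over all genes tested and the change of TPM + 1 was at least 2-fold. The read depth behind these values is unknown, because TPM keeps no record of it. All 7 epithelial markers were present in every group. In the organoids the summed level of 15 immune markers was 0.539 to 4.56 TPM against 6307 to 11720 TPM for the epithelial markers, with S100a9 or S100a8, Cpa3 and others listed at 0 in several media. In the crypts the immune sum was 6.78 to 210 TPM, so crypt values were not those of epithelium alone. The crypt libraries also carried a mean of 142000 TPM of mt-Atp8 against 2.09 TPM in the organoids, and crypt and organoid levels were therefore not compared with each other.

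Cxcl5, Cxcl1 and Cxcl2, whose products bind CXCR2 on neutrophils, lie on one strand within 146.579 kb of chromosome 5. In GRCm38 coordinates Cxcl5 lies at chr5:90759360-90761624, Cxcl1 at chr5:90891241-90893115 and Cxcl2 at chr5:90903871-90905938, all on the plus strand. Cxcl16, a membrane-bound ligand of CXCR6, lies at chr11:70453983-70459984 on the minus strand. Ccl20 lies at chr1:83116766-83119167, Ccl25 at chr8:4325210-4360020 and Ccl28 at chr13:119623819-119654359. Il18 lies at chr9:50554827-50581840 and Il33 at chr19:29925114-29960718, and these 5 genes are on the plus strand.

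Of the 10 members, 7 had a promoter in the RefSeq table of GRCm38.p6, with 9 windows in all. The 250 bases before the start site of Cxcl1 and Cxcl2 are shown because both hold the same kappaB-type decamer while Cxcl1 was above 0 in all 49 organoid libraries and Cxcl2 was listed at 0 in 29 of them. The Il33 windows are shown because Il33 was the member that differed most between media. Letters in capitals are matches on either strand to a kappaB motif (3 G, 2 free bases, 2 T, a free base and 2 C), or to the TEAD motif CATTCC, or to the TATA box TATAAA. The AP-1 motif TGANTCA was also searched and is in none of them. Sequences are written 5′ to 3′ on the plus strand.
Cxcl1, chr5:90890995-90891244: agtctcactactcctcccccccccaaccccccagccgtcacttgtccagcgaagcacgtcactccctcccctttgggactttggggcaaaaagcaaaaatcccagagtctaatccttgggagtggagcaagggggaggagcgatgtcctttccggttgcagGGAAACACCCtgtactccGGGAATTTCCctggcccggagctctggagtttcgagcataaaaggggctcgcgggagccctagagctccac
Cxcl2, chr5:90903649-90903898: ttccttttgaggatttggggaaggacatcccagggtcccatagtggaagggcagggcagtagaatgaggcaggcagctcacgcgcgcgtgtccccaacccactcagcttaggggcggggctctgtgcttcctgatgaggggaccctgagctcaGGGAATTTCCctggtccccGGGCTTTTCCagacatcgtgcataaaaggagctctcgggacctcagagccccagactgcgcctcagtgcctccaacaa
Il33, first start site, chr19:29924863-29925112: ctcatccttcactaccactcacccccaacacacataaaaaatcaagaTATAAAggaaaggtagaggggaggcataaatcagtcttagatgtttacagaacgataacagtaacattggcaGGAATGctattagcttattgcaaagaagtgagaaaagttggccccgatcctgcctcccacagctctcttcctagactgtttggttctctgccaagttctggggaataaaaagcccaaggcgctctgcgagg
Il33, second start site, chr19:29945540-29945789: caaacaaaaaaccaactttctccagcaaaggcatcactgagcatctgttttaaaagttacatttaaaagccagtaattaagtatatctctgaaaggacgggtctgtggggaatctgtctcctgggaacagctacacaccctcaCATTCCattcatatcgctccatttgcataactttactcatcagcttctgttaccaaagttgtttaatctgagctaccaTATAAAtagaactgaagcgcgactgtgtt
Cxcl1 and Cxcl2 share GGGAATTTCC, which begins at -71 and -97 from their start sites, and each holds a second kappaB match. Of 32851 promoter windows, 4.11% hold a kappaB match, 6.75% an AP-1 match, 12.6% a TEAD match and 12.4% a TATA match. Both Il33 windows hold a TEAD and a TATA match and neither holds a kappaB match. Positions count from the RefSeq start sites, which for Cxcl1 and Cxcl2 lie after the gene starts given above. A match is a description of letters, and no binding was measured here.

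In the organoids the members spanned a wide range of levels. Ccl25 was the highest, with a median of 100.4 TPM over the 49 libraries (34.8 to 190.0), followed by Ccl28 at 29.3 TPM (13.8 to 62.4), Il18 at 27.3 TPM (3.31 to 113), Cxcl16 at 17.1 TPM (4.53 to 45.4) and Ccl20 at 6.96 TPM (0.709 to 16.9). Il33 had a median of 2.55 TPM (0.144 to 16.4) and Cxcl1 one of 0.872 TPM (0.11 to 3.76). Cxcl5, Tslp and Cxcl2 were near the floor, with Cxcl5 listed at 0 in 11, Tslp in 20 and Cxcl2 in 29 of 49 libraries. When the 10 media were ordered by their mean log2(TPM + 1), every pair of neighbours in the order overlapped for each of the 10 members, as it did for 81.5% of 12625 genes. The widest spans between media means were those of Il33 (2.56 on the log2 scale, lowest in ENR and highest in 8C-bFGF), Il18 (2.54, lowest in 8C-E and highest in 8C-Pex) and Cxcl16 (2.01, lowest in ENR and highest in 8C-Pex).

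**Figure D1:**
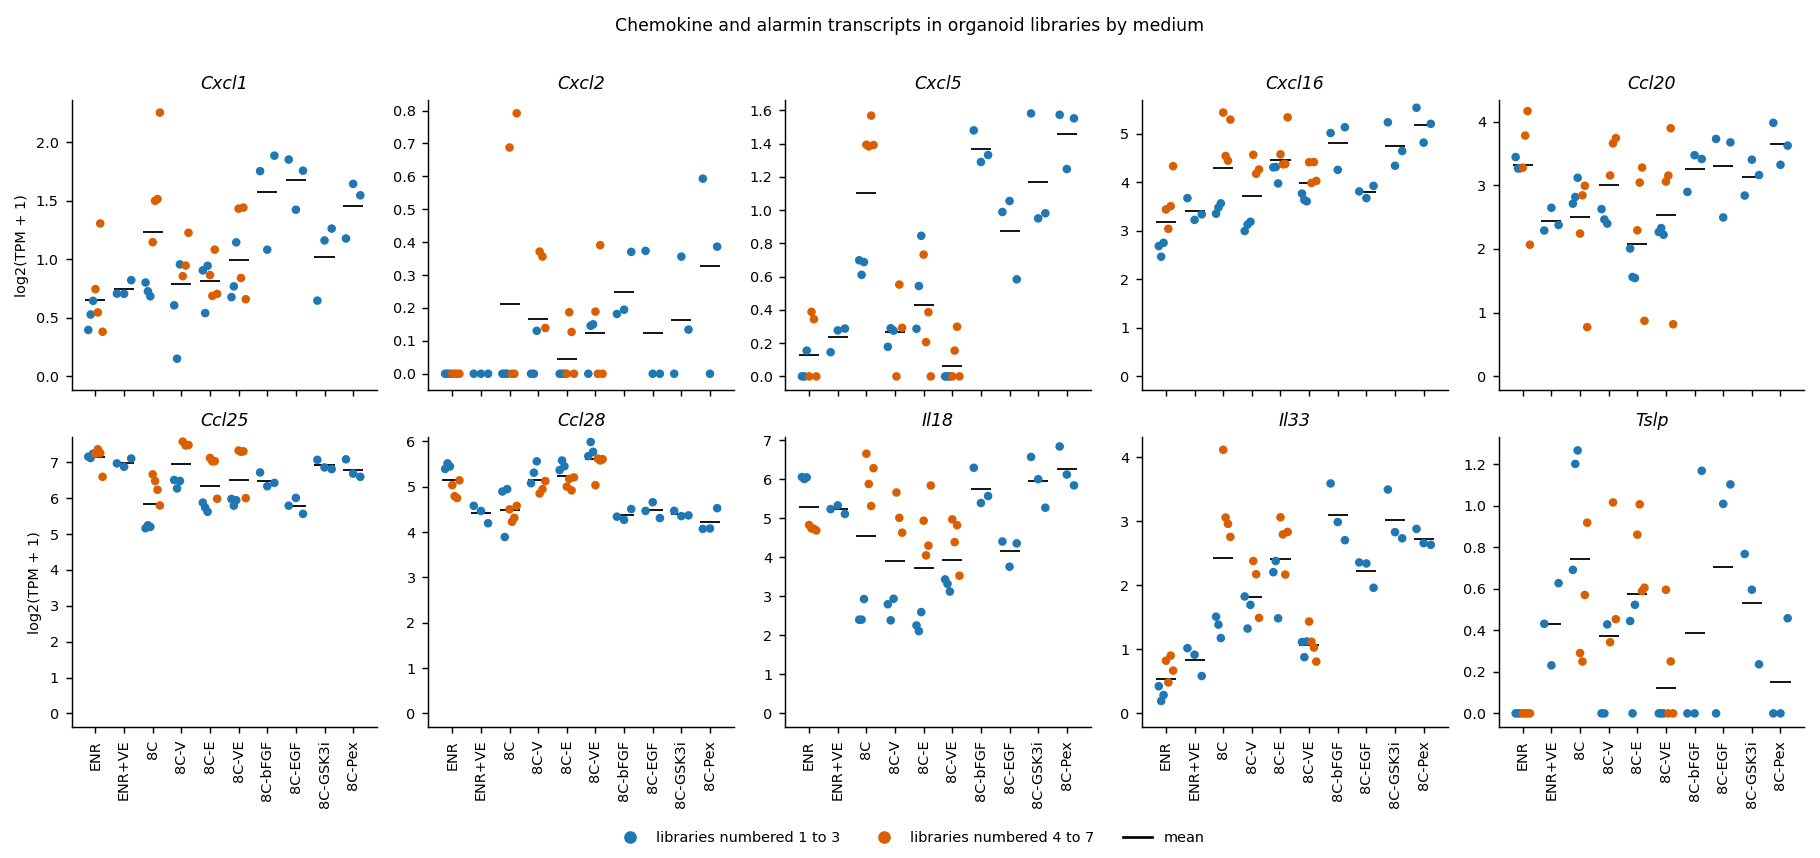
Each point is 1 organoid library and each black line the mean of a medium, on a scale of log2(TPM + 1), with libraries numbered 1 to 3 in blue and 4 to 7 in orange. Il33 lies lowest in ENR, Ccl28 highest in 8C-VE, Tslp is listed at 0 in all 7 ENR libraries, and Il18 in 8C splits by library number, from 4.28 to 6.62 TPM in the first 3 libraries and from 38.7 to 99.4 TPM in the rest.

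The first question was how the 8C condition differed from ENR. Of 12665 genes tested, 15.2% were called, and of the 7 members that passed the minimum mean of 1 TPM 3 were called. Il33 and Cxcl16 were higher in 8C and Ccl25 was lower. Il33 was under 1 TPM in every ENR library and passed the minimum only through 8C, so nothing is read from the count of 3. In the fit without a minimum mean Il33 was called too. The median change over all genes was 0.08 on the log2 scale.

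Il33, a nuclear cytokine of the IL-1 family that signals through ST2 once it leaves the cell, was 0.343, 0.144, 0.22, 0.768, 0.398, 0.869 and 0.589 TPM in the ENR libraries 1 to 7. In the 8C libraries 1 to 7 it was 1.85, 1.61, 1.26, 16.4, 7.34, 6.79 and 5.76 TPM. The groups did not overlap, and 8C library 4 stood above the rest. The mean TPM was 12.3-fold higher in 8C, and the change of TPM + 1 was 1.88 ± 0.38 on the log2 scale (SE, n = 7 and 7, adjusted p = 0.000981).

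Cxcl16 was 5.43, 4.53, 5.74, 9.86, 7.23, 10.4 and 19.1 TPM in ENR and 9.21, 10.2, 10.8, 42.3, 22.3, 20.8 and 38.2 TPM in 8C. Every numbered 8C library was above the ENR library of the same number, but the groups overlapped, and the numbers were not taken to pair the libraries here. The log2 change was 1.13 ± 0.36 (adjusted p = 0.0239), and with quantile normalization it was 0.90 with an adjusted p of 0.0787, which ended the call, as did a fit without a minimum mean (adjusted p = 0.0802).

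Ccl25 was 142, 138, 150.2, 149.7, 164, 152 and 95.7 TPM in ENR and 34.8, 36.9, 35.8, 100.4, 88.2, 74.3 and 54.6 TPM in 8C. ENR library 7 alone reached into the 8C range. The log2 change was -1.31 ± 0.24 (adjusted p = 0.000317). Ccl28, a mucosal chemokine for CCR10+ and CCR3+ cells that include IgA plasma cells, ranged from 25.9 to 44.8 TPM in ENR and from 13.8 to 29.9 TPM in 8C. Its log2 change of -0.67 ± 0.18 passed the adjusted p (0.00656) but not 2-fold. Paneth cell markers were lower in 8C as well, at 624 to 1633 TPM summed against 4990 to 6860 TPM in ENR. Enterocyte markers summed to 1185 to 3535 TPM in 8C and 1954 to 9669 TPM in ENR, with overlap. The part of either marker set in the Ccl25 and Ccl28 values was not tested.

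Il18, which caspase-1 cuts to its active form, had a mean change of -0.75 ± 0.67 between 8C and ENR (adjusted p = 0.435), and this mean hid opposite values. In ENR it was 65.4, 63.1 and 65.0 TPM in libraries 1 to 3 and 27.3, 25.6, 25.5 and 24.7 TPM in libraries 4 to 7. In 8C it was 4.28, 4.28 and 6.62 TPM in libraries 1 to 3 and 99.4, 57.7, 38.7 and 76.7 TPM in libraries 4 to 7. Within libraries 1 to 3 Il18 was therefore lower in 8C by a log2 change of -3.46 ± 0.18 (adjusted p = 2.14e-05), and within libraries 4 to 7 it was higher by 1.29 ± 0.25 (adjusted p = 0.00385).

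The same split was examined for the other members, since the labels give the numbers but no date or batch. The log2 change of Cxcl16 in 8C against ENR was 0.83 within libraries 1 to 3 (adjusted p = 0.00525) and 1.35 within 4 to 7 (adjusted p = 0.0102). Ccl25 changed by -1.97 and -0.82, with adjusted p of 1.45e-05 and 0.02, and Ccl28 by -0.87 and -0.53, with adjusted p of 0.0559 and 0.0187. Il33 changed by 2.50 ± 0.29 within 4 to 7 (adjusted p = 0.00019) and was under the minimum mean within 1 to 3, where 8C still held 1.26 to 1.85 TPM against 0.144 to 0.343 TPM. Smooth muscle markers summed to 2.47 to 4.00 TPM in 8C and 0 to 1.14 TPM in ENR within 4 to 7. Within 1 to 3 they summed to 0.271 to 0.50 and 0.283 to 0.799 TPM, and their part in the Il33 values was not tested. Of all genes 17.7% were called within libraries 1 to 3 and 15.7% within 4 to 7. Of these members Il18 alone had opposite directions in the sets. Enterocyte markers differed by set in ENR, with a summed level of 9024 to 9669 TPM in libraries 1 to 3 and 1954 to 5478 TPM in 4 to 7, while in 8C the sets overlapped, at 1185 to 2010 TPM and 1434 to 3535 TPM. Their part in the Il18 values was not tested. In bulk RNA, fewer cells of a type and less RNA per cell cannot be told apart.

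**Figure D2:**
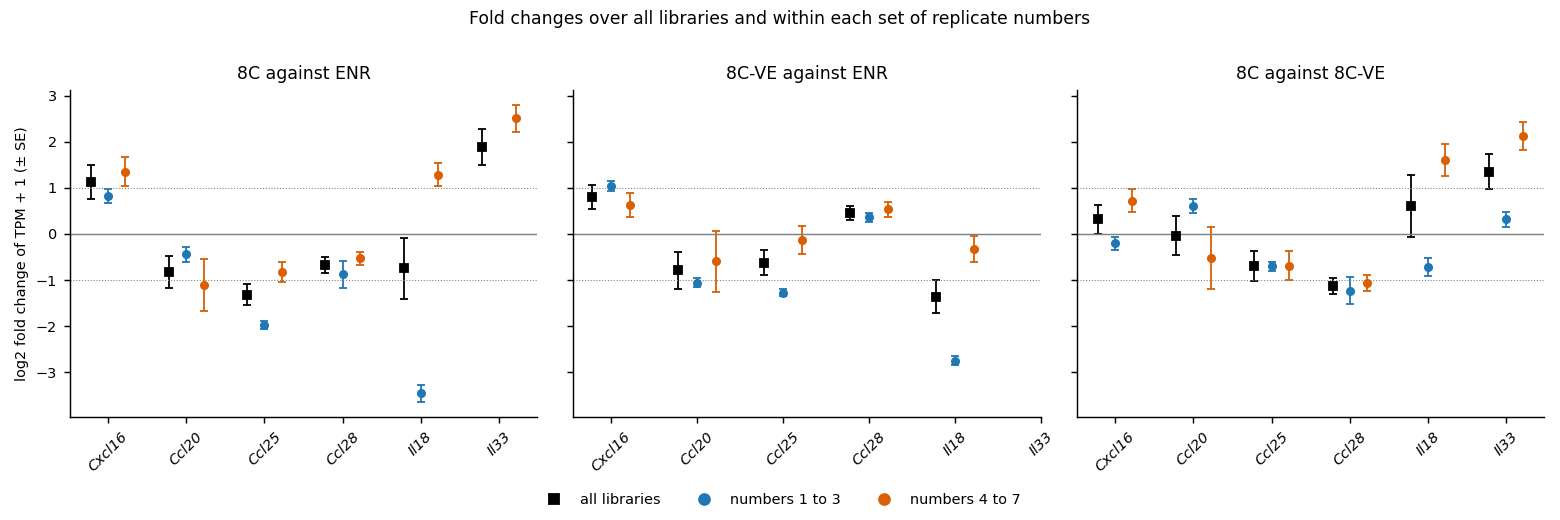
Points are log2 fold changes of TPM + 1 with SE bars for 6 members in 3 comparisons, over all libraries (black) and within libraries 1 to 3 (blue) or 4 to 7 (orange), and dotted lines mark 2-fold. Il18 lies at -3.46 and 1.29 in 8C against ENR, while Ccl28 lies near -1.1 in 8C against 8C-VE in every fit, and Il33 has no point where its mean was under 1 TPM.

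The members Cxcl5, Tslp and Cxcl2 were near the floor in these media. They were tested in a fit without a minimum mean, over 29579 genes, of which 6.75% were called in 8C against ENR. Cxcl5 was listed at 0 in 4 of 7 ENR libraries and reached 0.309 TPM there, while in 8C it was 0.623, 0.527, 0.61, 1.63, 1.61, 1.97 and 1.62 TPM, with no overlap. Its log2 change of 0.98 ± 0.17 had an adjusted p of 0.00123. Tslp (chr18:32815383-32819797, plus strand), which acts on dendritic cells and type 2 lymphoid cells, was listed at 0 in all 7 ENR libraries and at 0.189 to 1.41 TPM in the 8C libraries (0.74 ± 0.15, adjusted p = 0.00418). Cxcl2 was listed at 0 in all 10 ENR and ENR+VE libraries and in 5 of 7 8C libraries, with 0.731 TPM as its highest organoid value. These levels are so low that neither Cxcl5 nor Tslp reached 2-fold on the scale of TPM + 1. Cxcl1 was 0.302 to 1.47 TPM in ENR and 0.607 to 3.76 TPM in 8C (0.58 ± 0.24, adjusted p = 0.0712).

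The contribution of VPA and EPZ6438 was addressed by the media that lacked them. With both withdrawn, 8C-VE differed from ENR in 3.19% of genes and in 1 of 5 members tested. Il18 was 9.79, 8.96, 7.7, 30.3, 19.9, 27.2 and 10.5 TPM in 8C-VE, a change of -1.36 ± 0.35 against ENR (adjusted p = 0.0232), and without a minimum mean the adjusted p was 0.102. The sets differed here too, with -2.74 within libraries 1 to 3 (adjusted p = 2.71e-07) and -0.32 within 4 to 7 (adjusted p = 0.671). Within libraries 1 to 3 Cxcl16 (1.04), Ccl20 (-1.05) and Ccl25 (-1.27) were also called, against 6.71% of genes, and within 4 to 7 no member was, against 1.04% of genes.

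In 8C against 8C-VE, 10.7% of genes were called and 2 of 7 members, Ccl28 and Il33, and within libraries 1 to 3 and 4 to 7 the shares of genes were 12.5% and 11.1%. Ccl28 was 28.7, 13.8, 29.9, 21.6, 17.7, 18.9 and 22.9 TPM in 8C and 50.1, 62.4, 53.6, 31.8, 48.2, 46.8 and 47.8 TPM in 8C-VE. The groups did not overlap, and the log2 change was -1.13 ± 0.17 (adjusted p = 0.000109). It was -1.23 within libraries 1 to 3 and -1.06 within 4 to 7, and both were called. Paneth cell markers moved with it, at 624 to 1633 TPM summed in 8C and 5082 to 8081 TPM in 8C-VE, and their part in the Ccl28 difference was not tested.

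Il33 was 0.752 to 1.70 TPM in 8C-VE, and its change in 8C was 1.35 ± 0.38 (adjusted p = 0.0149). It was 0.32 ± 0.16 within libraries 1 to 3 (adjusted p = 0.212) and 2.13 ± 0.30 within 4 to 7 (adjusted p = 0.000839), and with quantile normalization of all libraries it was 0.96 with an adjusted p of 0.0881. Without a minimum mean its adjusted p was 0.0574. Smooth muscle markers moved with it by set, at 0.271 to 0.50 TPM in 8C libraries 1 to 3 and 2.47 to 4.00 TPM in 4 to 7, against 0.138 to 0.943 TPM in 8C-VE, and their part was not tested. Il18 again had opposite directions in the sets, with -0.71 ± 0.20 within libraries 1 to 3 (adjusted p = 0.0434, under 2-fold) and 1.60 ± 0.36 within 4 to 7 (adjusted p = 0.011), where it was called, while its change over all libraries was 0.61 and not called. The Cxcl16 differences were -0.20 and 0.72 in the sets, and neither was called. Cxcl5 was listed at 0 in 5 of 7 8C-VE libraries and at 0.114 and 0.23 TPM in the others, all below every 8C library. In the fit without a minimum mean, where 4.58% of genes were called, the change of Cxcl5 of 1.04 ± 0.17 was called (adjusted p = 0.00101). Tslp changed by 0.62 ± 0.18 in that fit (adjusted p = 0.0413), under 2-fold.

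Each inhibitor was then considered alone. Il33 was 3.61, 4.21, 1.8, 7.36, 5.94, 3.5 and 6.14 TPM in 8C-E, which retained VPA. It did not overlap 8C-VE and was 1.35 ± 0.21 higher (adjusted p = 0.000465), the single member called of 6, against 4.18% of genes. The change was 0.99 within libraries 1 to 3 (adjusted p = 0.00698, under 2-fold) and 1.62 within 4 to 7 (adjusted p = 0.00732, called, against 2.87% of genes). Il33 was 2.55, 1.51, 2.24, 4.21, 3.51 and 1.81 TPM in 8C-V, which retained EPZ6438. There the change against 8C-VE was 0.74 ± 0.18 (adjusted p = 0.0207), under 2-fold. In 8C-V against 8C-VE limma called 0 of 6 members, 2 of which had an unadjusted p below 0.05, against 3.22% of genes.

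Withdrawal of 1 inhibitor from 8C changed Ccl25 in 8C-V, where it was 89.9, 76.3, 88.2, 190.0, 176 and 178 TPM. The change against 8C was 1.14 ± 0.31 (adjusted p = 0.0234), 1.22 within each set of libraries, and it was the single call among 7 members against 5.2% of genes. Without a minimum mean this call was lost, and within libraries 4 to 7 Cxcl5 (-1.15, adjusted p = 0.00464) and Il33 (-1.21, adjusted p = 0.0286) were called lower as well, against 10.0% of genes, where Cxcl5 (0 to 0.466 TPM in 8C-V) passed the minimum mean only through 8C. Within libraries 1 to 3 the Il33 change was 0.26 (adjusted p = 0.528), against 5.28% of genes called. Ccl28 was 0.67 ± 0.18 higher in 8C-V (adjusted p = 0.0222) and 0.76 ± 0.16 higher in 8C-E (adjusted p = 0.00681) than in 8C, both under 2-fold. Paneth cell markers summed to 3366 to 4353 TPM in 8C-V and 1935 to 3742 TPM in 8C-E, above the 624 to 1633 TPM of 8C without overlap, and tuft markers had a median of 16.5 TPM in 8C-V and 8.35 TPM in 8C. Their part was not tested. In 8C-E against 8C limma called 0 of 7 members, 1 with an unadjusted p below 0.05, against 4.2% of genes, and within libraries 1 to 3 Ccl20 was called lower (-1.18, adjusted p = 0.0123), against 6.11% of genes. Cxcl5 was 0 to 0.466 TPM in 8C-V, below every 8C library (-0.84 ± 0.19, adjusted p = 0.0262 without a minimum mean), and 0 to 0.797 TPM in 8C-E (-0.68 ± 0.20, adjusted p = 0.102).

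These 5 comparisons share the libraries of 8C and 8C-VE, so their values are given side by side and not as independent results. The interaction of VPA with EPZ6438, fitted over 8C, 8C-V, 8C-E and 8C-VE, was called for 0.581% of genes and for 0 of 7 members, with 0 at an unadjusted p below 0.05. Its estimate was -0.74 ± 0.48 for Il33, -0.96 ± 0.49 for Ccl25 and -0.30 ± 0.23 for Ccl28. The 95% interval for Il33 ran from -1.73 to 0.25, which holds values as large as the Il33 changes themselves. Within libraries 1 to 3 the interaction was called for Ccl25 (-1.06 ± 0.13, adjusted p = 0.00132) and for 2.20% of genes.

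In ENR+VE against ENR 8.87% of genes were called and limma called 0 of 5 members, with 2 at an unadjusted p below 0.05. Ccl28 was 22.9, 21.1 and 17.3 TPM in ENR+VE, below all 7 ENR libraries, and its change was -0.74 ± 0.19 (adjusted p = 0.0156), under 2-fold. It was called against ENR libraries 1 to 3 (-1.04 ± 0.12, adjusted p = 0.000367), where 1368 of 12468 genes were called, and not against 4 to 7 (-0.52, adjusted p = 0.0431), where 1333 of 12404 genes were. Paneth cell markers summed to 1650 to 1877 TPM in ENR+VE and 4990 to 6860 TPM in ENR, and their part was not tested. Il18 was 36.6, 39.2 and 33.5 TPM, below ENR libraries 1 to 3 (-0.81, adjusted p = 0.00024) and above 4 to 7 (0.48, adjusted p = 0.0153). Tslp was 0.348, 0.174 and 0.544 TPM in ENR+VE against 0 in ENR (0.43 ± 0.07, adjusted p = 0.00317 without a minimum mean). Il33 was 0.499 to 1.03 TPM there (0.30 ± 0.18, adjusted p = 0.484). The test of whether the inhibitors acted differently in the ENR and 8C base media called 0.58% of genes and 0 of 7 members, with 0 at an unadjusted p below 0.05. For Il33 that difference was 1.05 ± 0.52 (adjusted p = 0.795) and for Cxcl5, without a minimum mean, 0.93 ± 0.23 (adjusted p = 0.11). Within libraries 1 to 3 it was called for Ccl20 (1.496 ± 0.20, adjusted p = 0.00134) and for 2.81% of genes.

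The withdrawal of Pexmetinib, GSK-3 Inhibitor XV, bFGF or EGF was measured in 3 libraries each, numbered 1 to 3. Against all 7 8C libraries limma called 0 of 8 members in each, with 2, 1, 0 and 0 at an unadjusted p below 0.05, and 0.482%, 0%, 0.00779% and 0.451% of all genes. The highest levels of Cxcl16 (45.4, 27.2 and 35.9 TPM) and of Il18 (113, 68.4 and 56.2 TPM) in any medium by mean were those of 8C-Pex. Ccl20 was also highest there, at 14.8, 9.0 and 11.3 TPM, a change of 1.14 ± 0.43 against 8C (adjusted p = 0.293).

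The calls differed with the 8C libraries that these 4 media were set against. The labels number their libraries 1 to 3, but in the table their columns stand among those of libraries 4 to 6 of the other media. The columns of libraries 7 stand after those of libraries 1 to 3. Smooth muscle markers summed to 2.41 to 4.79 TPM without Pexmetinib, GSK-3 Inhibitor XV or bFGF and 1.22 to 2.36 TPM without EGF, against 0.271 to 0.50 TPM in 8C libraries 1 to 3 and 2.47 to 4.00 TPM in 4 to 7, and what sets the 8C libraries apart was not tested. Against 8C libraries 1 to 3 the same 4 members, Cxcl16, Ccl25, Il18 and Il33, were called higher without Pexmetinib, GSK-3 Inhibitor XV or bFGF, with Il18 changes of 3.69, 3.37 and 3.17, and 6.25%, 7.12% and 5.53% of all genes were called. Against 8C libraries 4 to 7 no member was called, and the Il18 changes were 0.23, -0.08 and -0.28, with 0.574%, 0% and 0% of all genes called. Il18 without EGF was 20.1, 12.5 and 19.4 TPM, which lay above 8C libraries 1 to 3 (1.59 ± 0.25, adjusted p = 0.0171) and below 8C libraries 4 to 7 (-1.86 ± 0.30, adjusted p = 0.0187). Cxcl16 without EGF was 13.0, 11.8 and 14.2 TPM and was called lower against 4 to 7 (-1.13 ± 0.25, adjusted p = 0.0409). For EGF 3.56% of genes were called against libraries 1 to 3 and 2.64% against 4 to 7. The enterocyte sum was 384 to 403 TPM without EGF, the lowest of any medium, and its part in these values was not tested.

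Genes with the most similar pattern to the 3 widest-ranging members were listed by Pearson's r of log2(TPM + 1) over the 49 organoid libraries, which share media and library numbers. For Il33 they were Bsg (0.93), Btn1a1 (0.93) and Plat (0.92). For Il18 they were Xpnpep2 (0.87), Krt20 (0.86) and Mep1b (0.85), the last a brush border protease. For Cxcl16 they were Acot9 (0.91), Serpinb5 (0.91) and Rras (0.90).

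In crypts the question was how irradiation changed these transcripts over 5 days. Cxcl16 and Il33 rose and Ccl28 fell, with the widest changes on days 2 and 3, and Ccl25 fell on days 3 and 5. Of 10802 genes, 6.92%, 30.8%, 53.8% and 15.8% were called on days 1, 2, 3 and 5 against Normal, and of 8 members 1, 3, 5 and 8 were. The median of all genes moved by -0.36, -0.61, -1.03 and 0.27 on the log2 scale, while mitochondrial genes held 12.7% to 18.1% of TPM in Normal and 37.9% to 48.4% on day 3, so called changes are also given relative to that median.

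Il33 was 2.77 and 2.83 TPM in Normal, 7.43 and 4.99 on day 1, 32.9 and 42.9 on day 2, 19.0 and 32.8 on day 3, and 8.71 and 19.5 TPM on day 5. All 8 irradiated libraries were above both Normal libraries. The log2 changes were 0.90 (adjusted p = 0.0793), 3.34 ± 0.33 (5.7e-06), 2.77 (7.23e-06) and 1.89 (0.000867), and 1.26, 3.95, 3.81 and 1.62 relative to the median gene. Cxcl16 was 4.62 and 5.75 TPM in Normal, 16.8 and 13.0 on day 1, 36.4 and 48.4 on day 2, 35.5 and 43.2 on day 3, and 10.7 and 12.7 TPM on day 5. It too did not overlap Normal on any day. Its log2 changes were 1.35 ± 0.22 (adjusted p = 0.00148), 2.80 (7.34e-07), 2.71 (3.07e-07) and 1.04 (0.00292), and 1.71, 3.41, 3.74 and 0.76 relative to the median gene. The day 1 call was lost without a minimum mean (adjusted p = 0.146) and with only its groups in the fit (adjusted p = 0.118), and the day 5 call with mitochondrial genes removed (0.97) or quantile normalization (0.76).

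Ccl28 went the other way, from 8.25 and 9.71 TPM in Normal to 4.2 and 4.73 on day 1, 1.02 and 0.861 on day 2, 0.237 and 0.251 on day 3, and 4.60 and 2.60 TPM on day 5. No irradiated library overlapped Normal. The log2 changes were -0.87 ± 0.25 (adjusted p = 0.0349), -2.36 (9.16e-06), -3.00 (4.09e-07) and -1.15 (0.00366), and -0.51, -1.75, -1.97 and -1.42 relative to the median gene. Ccl25 was 752 and 651 TPM in Normal and 585 and 671 on day 1, with the groups overlapping. It was 449 and 442 TPM on day 2, 108 and 73.5 on day 3 and 416 and 280 TPM on day 5. Its changes of -2.96 ± 0.23 on day 3 (adjusted p = 2.61e-07) and -1.03 on day 5 (0.00437) were called, and they were -1.92 and -1.30 relative to the median gene. Enterocyte markers summed to 10320 and 5399 TPM in Normal, 22390 and 18870 on day 2, 4213 and 1428 on day 3, and 10140 and 8697 TPM on day 5, and their part in the Ccl25 values was not tested. The calls of Il33, Cxcl16 and Ccl28 on days 2 and 3 and of Ccl25 on day 3 were kept with quantile normalization and with mitochondrial genes removed.

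Il18 had the highest median of the 3 alarmin members over the crypt libraries (115 TPM), though not the highest mean in IR+VE on day 3. It was 123 and 69.4 TPM in Normal, 116 and 101 on day 1, 114 and 105 on day 2, 60.7 and 39.6 on day 3, and 161 and 218 TPM on day 5. It passed the adjusted p on day 3 (-0.90 ± 0.28, adjusted p = 0.00873, under 2-fold) and was called on day 5 (1.01 ± 0.28, adjusted p = 0.0144, and 0.74 relative to the median gene). On day 3 it was 0.14 above the median gene, and the day 5 call was lost with mitochondrial genes removed (0.91, adjusted p = 0.0505) or quantile normalization (0.92). Ccl20 was 10.8 and 7.89 TPM in Normal, 3.11 and 5.69 on day 2, 2.97 and 3.68 on day 3, and 1.10 and 4.58 TPM on day 5. Its day 3 change of -1.25 ± 0.38 (adjusted p = 0.00864) was -0.22 relative to the median gene and 0.0054 with quantile normalization, so the call rested on the scaling. It was also lost without IR day 3 library 1 (-1.13, adjusted p = 0.0609) and without Normal library 1 (-1.05, adjusted p = 0.0616). Its day 5 change was -1.58 ± 0.38 (adjusted p = 0.00764), or -1.86 relative to the median gene.

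Cxcl1 was 2.13 and 1.72 TPM in Normal, 2.77 and 2.35 on day 3, and 0.153 and 0.611 TPM on day 5 (-1.10 ± 0.29, adjusted p = 0.0117, and -1.37 relative to the median gene). On day 3 it was 1.32 above the median gene, and with quantile normalization its change was called (1.49, adjusted p = 0.000862). Cxcl2 was 32.2 and 8.84 TPM in Normal, 39.6 and 9.32 on day 3, and 0.534 and 0.717 TPM on day 5 (-3.48 ± 0.69, adjusted p = 0.00367, and -3.75 relative to the median gene). Within Normal and within day 3 the 2 Cxcl2 values differed more widely than the group means, 4.18 and 4.36 as log2(TPM + 1). The immune sum moved with Cxcl2 on day 5, at 210 and 134 TPM in Normal and 6.78 and 17.3 TPM on day 5. In at least 1 library of the group, 10 of 15 and 4 of 15 immune markers were above 1 TPM. On day 3 the library with more Cxcl2 also had the larger immune sum, 120 against 35.8 TPM, and the part of these cells was not tested. Cxcl5 was at most 0.0244 TPM in Normal and 0.882 and 0.799 TPM on day 3 (0.86 ± 0.32, adjusted p = 0.099 without a minimum mean, where 15.8% of genes were called). Tslp was listed at 0 in 14 of 18 crypt libraries and reached 0.12 TPM.

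The 8 calls on day 5 rested on few libraries. Without IR day 5 library 2 or without Normal library 1 4 of the 8 remained in each case, without IR day 5 library 1 Cxcl1 and Ccl20 were lost, and without Normal library 2 Il18 was lost (0.61, adjusted p = 0.144). The Il33 and Cxcl2 calls were kept in each of these. With quantile normalization 5 of the 8 were called, without Cxcl16, Il18 and Cxcl1 (-0.88), and without a minimum mean 0 were.

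**Figure D3:**
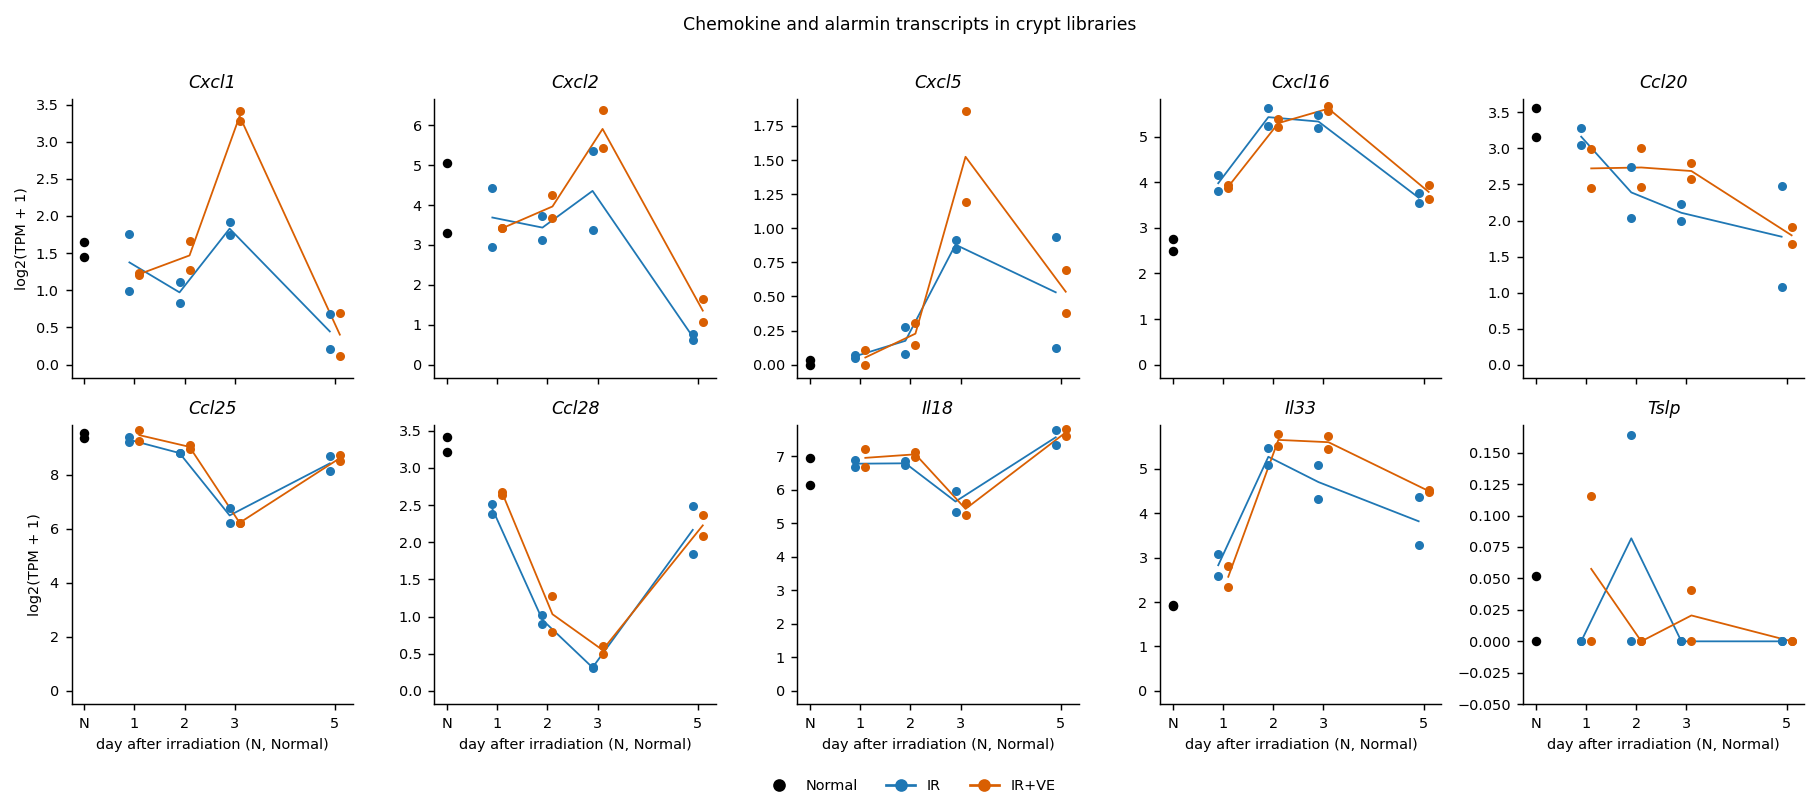
Each point is 1 crypt library on a scale of log2(TPM + 1), with Normal in black at the left of each panel, and lines join the means of IR (blue) and IR+VE (orange) over days after irradiation. Il33 and Cxcl16 peak on days 2 and 3, Ccl28 and Ccl25 are lowest on day 3, and Cxcl1 in IR+VE stands at 9.65 and 8.68 TPM on day 3 against 2.77 and 2.35 TPM in IR.

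The last comparison was between irradiated mice with and without VPA and EPZ6438. On day 3 Cxcl1 was 9.65 and 8.68 TPM in IR+VE and 2.77 and 2.35 TPM in IR, and was the single call of 8 members, against 31.7% of genes. Its change was 1.51 ± 0.29 (adjusted p = 0.000934), which was 0.82 relative to the median gene, since all genes had a median change of 0.69. With quantile normalization it was 0.58 (adjusted p = 0.127), and without a minimum mean its adjusted p was 0.0711. Its neighbour Cxcl2 was 42.4 and 82.2 TPM in IR+VE and 39.6 and 9.32 TPM in IR (1.55 ± 0.69, adjusted p = 0.0778), and without IR library 1 of that day its change was called (2.54, adjusted p = 0.0206). Cxcl5 was 1.28 and 2.62 TPM against 0.882 and 0.799 TPM (0.64 ± 0.32, adjusted p = 0.299 without a minimum mean). Of these 3 CXCR2 ligands the test called Cxcl1 alone, in a comparison where 31.6% of all genes were called higher. Fibroblast and endothelial markers summed to 8.10 and 22.9 TPM in these IR+VE libraries and 4.40 and 5.51 TPM in IR, and immune markers to 48.2 and 100.7 TPM and 120 and 35.8 TPM. Epithelial markers summed to 5213 and 5361 TPM in IR+VE and 2483 and 3661 TPM in IR, and Paneth cell markers to 10130 and 15460 TPM and 3841 and 10020 TPM, both without overlap. More genes were above 0 in these IR+VE libraries, 17744 and 18079 against 16222 and 16444 in IR. The part of these differences was not tested.

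Il33 was 52.5 and 42.8 TPM in IR+VE on day 3 (0.90 ± 0.33, adjusted p = 0.0334, under 2-fold, and 0.20 relative to the median gene), and without IR library 2 of that day its change was 1.27 (adjusted p = 0.014). On day 5 it was 21.3 and 21.9 TPM against 8.71 and 19.5 TPM (0.68 ± 0.33, adjusted p = 1). On days 1, 2 and 5 limma called 0 of 8 members, with 0 at an unadjusted p below 0.05, against 0.00926%, 8.38% and 0.0185% of genes. As a mean over the 4 days 3.55% of genes and 0 of 8 members were called, with 2 at an unadjusted p below 0.05. These were Cxcl1 (0.45 ± 0.14, adjusted p = 0.0159) and Il33 (0.42 ± 0.17, adjusted p = 0.0406), both close to the median of all genes, which was 0.36. The test of whether the effect differed between days called 1.75% of genes and 0 of 8 members, with Cxcl1 alone at an unadjusted p below 0.05 (adjusted p = 0.0658). Cxcl16, Ccl28 and Ccl25 differed between IR+VE and IR by at most 0.28, 0.24 and 0.27 in size on any day, with SE of 0.22, 0.25 and 0.23. Each of these largest differences was on day 3, where the median gene moved by 0.69 and Ccl25 was lower in IR+VE. Each of these genes thus lay below the median gene on that day.

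**Figure D4:**
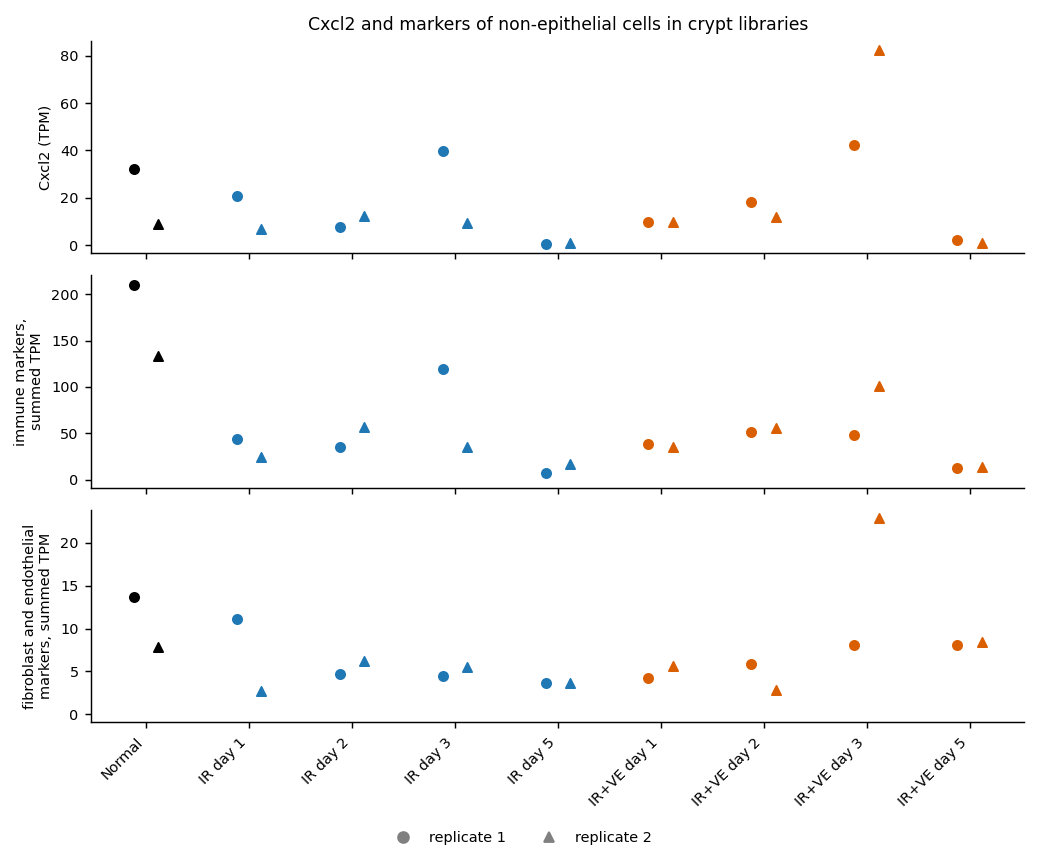
The 3 panels give Cxcl2 in TPM and the summed TPM of 15 immune and of 10 fibroblast and endothelial markers in each crypt library, with circles for replicate 1 and triangles for replicate 2. Cxcl2 and the immune sum are both low in the 4 libraries of day 5, and the highest Cxcl2 value, 82.2 TPM in IR+VE on day 3, is in the library with the highest fibroblast and endothelial sum.

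Genes around the members were read from 6 lists. Among the 27 other chemokines found, 5 were tested in 8C against ENR, with 1 higher (11.9% of all genes) and 2 lower (3.31% of all genes; median -0.18 against 0.08). Ccl6 (-3.23 ± 0.37) and Ccl9 (-2.63 ± 0.64) were lower and Ccl27a (1.73 ± 0.22), a skin chemokine that shares CCR10 with Ccl28, was higher. Ccl27a was also higher in 8C than in 8C-VE (1.77 ± 0.19, adjusted p = 2.93e-06), opposite in sign to Ccl28. In crypts 6 of 11 other chemokines were lower on day 5 (5.61% of all genes), led by Ccl5 (-5.44 ± 0.58) and Ccl4 (-3.26 ± 0.44), which lymphocytes and macrophages make, beside the lower immune sum given above. On day 3, of 11 tested, Cxcl9 (2.37) and Ccl24 (1.05) were higher (2.56% of all genes) and Cx3cl1 (-2.13) and Ccl9 (-1.20) lower (51.3% of all genes; median -0.28 against -1.03). Cxcl9 was 0.295 TPM in Normal and passed the minimum only through irradiated groups, so nothing is read from the count of higher genes. Of 17 receptors and decoys, 3 at most were tested in any comparison and limma called 0 in each, against 0% to 53.8% of all genes.

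Among 18 NF-kappaB feedback and target genes, 16 were tested in 8C against ENR and 1 was called, against 15.2% of all genes. It was Icam1, an adhesion molecule for leukocytes (2.98 ± 0.20, adjusted p = 8.75e-09; median of the list -0.12 against 0.08). Icam1 was 2.83 ± 0.21 higher in 8C than in 8C-VE and 1.07 ± 0.22 higher in ENR+VE than in ENR, and its medium interaction was called (1.77 ± 0.32, adjusted p = 0.00551). Icam1 averaged 0.574 TPM in ENR and 0.743 TPM in 8C-VE, so it passed the minimum only through 8C or ENR+VE. Nothing is read from its being the 1 call. The inhibitor genes Nfkbia, Tnfaip3 and Nfkbiz were called in none of these comparisons. In crypts on day 3, 8 of 15 were lower (51.3% of all genes) and 1 was higher than Normal (median -1.64 against -1.03), led by Zc3h12a (-3.32) and Nfkbiz (-2.98), and Icam1 was the one higher (1.13). In IR+VE against IR on day 3, 10 of 15 were higher (31.6% of all genes) and 0 lower (median 1.66 against 0.69), led by Tnfaip3 (2.37 ± 0.37), Tnip1 (1.85), Nfkb1 (1.82) and Nfkb2 (1.73), beside the marker sums and numbers of genes above 0 given for Cxcl1.

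Of 16 genes that process IL-1 family cytokines, 14 were tested in 8C against ENR and 1, Naip1, was called (-1.21 ± 0.26), against 15.2% of all genes (median -0.14 against 0.08), and without EGF Gsdmd, which forms the pore through which these cytokines leave, was lower than in 8C (-1.71 ± 0.28, adjusted p = 0.0237). In crypts 3 of 14 were lower on day 2 (26.2% of all genes) and 1 was higher (4.55% of all genes; median -0.43 against -0.61), a share near that of all genes. The 3 were the inflammasome genes Pycard (-3.58 ± 0.27), Nlrp6 (-2.32) and Casp1 (-1.38), and Gsdmd was the one higher (1.43). On day 3 9 of 14 were lower (51.3% of all genes) and 0 higher (median -1.31 against -1.03). In IR+VE against IR on day 3, 7 of 14 were higher (31.6% of all genes; median 0.99 against 0.69). Of 12 genes of the p38 pathway and of AU-rich mRNA decay, limma called 0 in each organoid comparison, against 0% to 15.2% of all genes. In crypts 9 of 12 were lower on day 3 (51.3% of all genes; median -1.49 against -1.03), led by Zfp36 (-4.56 ± 0.36), which binds AU-rich elements of cytokine mRNAs, and Atf3 (-4.32), and 5 were higher in IR+VE against IR on day 3 (31.6% of all genes; median 0.84 against 0.69).

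Of 10 other alarmins and IL-1 family genes 3 were tested in 8C against ENR and 1 was called, against 15.2% of all genes. Il1rn, the IL-1 receptor antagonist, was higher in 8C (2.00 ± 0.58, adjusted p = 0.0135) and in 8C-VE (2.41 ± 0.33, adjusted p = 0.000394) than in ENR. In crypts Il1rn was higher on all 4 days, by 3.80, 5.18, 5.42 and 3.25. S100a8 and S100a9, abundant in neutrophils, were listed at 0 in both Normal libraries, passed the minimum only through the irradiated groups and were called higher on days 2 and 3. Both are among the 15 immune markers, whose sum went the other way, from 210 and 134 TPM in Normal to 120 and 35.8 TPM on day 3. Of 8 genes of this list tested, 4 were higher on day 3 (2.56% of all genes) and 1 was lower (51.3% of all genes; median 1.62 against -1.03). S100a8 and S100a9 are among the 4, so nothing is read from this count or median. Hmgb1 was lower on days 1, 2 and 3 (-1.01, -1.89 and -1.51), against -0.36, -0.61 and -1.03 for the median gene.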

How the data were processed

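RNA of organoids and crypts was extracted with the RNeasy kit, and randomly primed NEBNext Ultra libraries were sequenced as 150 bp pairs. Per the labels and the study's methods, the authors trimmed reads with Trimmomatic 0.39, aligned them to mm10 with STAR 2.7.3a, and counted them with featureCounts. They deposited one table of TPM for 29579 genes and 67 libraries, whose columns were all matched to a sample by name, and how counts became TPM is not given in the sources used here. TPM sums per library were 983800 to 988100 in organoids and 819300 to 910900 in crypts.

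From these values log2(TPM + 1) was computed wherever a gene averaged 1 TPM or more over the libraries fitted, and limma 3.58.1 (R 4.3.3; lmFit and eBayes with trend and robust options) was fitted over all such genes, with Benjamini-Hochberg adjustment over all genes tested. Tests were two-sided. Organoid comparisons used the libraries of the groups compared, and crypt comparisons one fit of 18 libraries. A call needed an adjusted p below 0.05 and 2-fold. Fold changes on this scale understate the change of low genes. Scripts were tested on simulated data.

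All 10 members are named. Likeness was given for the 3 members of widest range, with 3 genes each, and each gene list by its counts and up to 4 called genes. Members, lists and motif letters were chosen with earlier results of these data known. Coordinates are those of the GENCODE annotation of GRCm38. Same-numbered libraries deviated together in all pairs (r above 0.1) for 8C-VE against ENR, 8C-E against 8C-VE, 8C-V against 8C-VE and 8C-V against 8C. In the other comparisons at least 1 pair was at or below 0.1 or there were fewer than 3 pairs, and the numbers were not taken to pair the libraries. Alternatives were a pseudocount of 0.1 TPM, quantile normalization, other minimum means, no minimum fold, a replicate block, other sets of libraries in the fit, mitochondrial genes removed, and each library left out in turn.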

Additional observations from a re-analysis of the deposited data

Results flagged for a closer look

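In 8 of 50 groups of values a library's gap to its nearest neighbour was above the 95% critical value of Dixon's test, and chance alone marks about 1 group in 20. Cxcl1 was 3.76 TPM in 8C library 7, with 1.85 TPM as the next highest, and 1.47 TPM in ENR library 6, with 0.676 TPM next. Cxcl16 was 39.5 TPM in 8C-E library 7, with 22.8 TPM next, and 19.1 TPM in ENR library 7, with 10.4 TPM next. Ccl25 was 95.7 TPM in ENR library 7, the lowest of its group, with 138 TPM next. Libraries numbered 7 were thus marked in 4 of the 8, and Ccl20 in library 7 of ENR, 8C, 8C-E and 8C-VE was also the lowest of each group, at 3.19, 0.709, 0.831 and 0.763 TPM. Il33 was 16.4 TPM in 8C library 4, with 7.34 TPM next. Tslp was 1.02 TPM in 8C-V library 5, with 0.369 TPM next, and 0.511 TPM in 8C-VE library 4, with 0.189 TPM next, levels at which the depth is unknown.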

How the results depend on the processing

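Of the recomputed counts of members called, 236 stayed within 1.5 times the main count and 49 did not, and of the recomputed values of members called under at least 1 setting 622 kept their direction and their side of the threshold, 14 changed sign without being called in either fit, 60 gained a call, 44 lost one and 3 reversed, with a call in one of the fits. Of the 14, 8 were in fits on libraries 4 to 7 and 3 in fits on libraries 1 to 3, such as Il33 in 8C-V against 8C (0.26), 2 were with the replicate block and 1 was Il18 on IR day 3 with quantile normalization (0.06). Over all members tested, 31 of 156 values within a set of library numbers had another sign than over all libraries, 29 of them called in neither fit. The reversals with a call were Il18 in 8C against ENR within libraries 4 to 7 (1.29), Il18 in 8C-EGF against 8C libraries 1 to 3 (1.59) and Ccl20 on IR day 3 with quantile normalization (0.0054), and the cause was not tested. Members called in 8C-VE against ENR numbered 4 within libraries 1 to 3 and 0 within 4 to 7, without a minimum mean or with all media in one fit. In 8C against 8C-VE 1 was called with quantile normalization, a minimum of 5 TPM or libraries 1 to 3, and in 8C-E against 8C-VE 0 with a minimum of 5 TPM or libraries 1 to 3. In 8C-V against 8C-VE 1 was called with a pseudocount of 0.1 TPM or no minimum fold. In 8C-V against 8C the count was 0 without a minimum mean, 3 within libraries 4 to 7 and 2 with no minimum fold, and in 8C-E against 8C it was 1 within libraries 1 to 3 or with no minimum fold. In ENR+VE against ENR 1 was called with quantile normalization, ENR libraries 1 to 3 or no minimum fold. For EGF withdrawal it was 1 against libraries 1 to 3 and 2 against 4 to 7, for the withdrawal of Pexmetinib, GSK-3 Inhibitor XV or bFGF 4 against libraries 1 to 3, and for each interaction in organoids 1 within libraries 1 to 3.

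In crypts, IR day 1 gave 2 with quantile normalization or no minimum fold and 0 without a minimum mean or with only its groups in the fit, IR day 2 gave 5 with no minimum fold, and IR day 5 gave 5 with quantile normalization and 0 without a minimum mean. IR+VE day 3 gave 0 with quantile normalization, no minimum mean or a minimum of 5 TPM and 2 with only its groups in the fit or no minimum fold, and the mean over days gave 2 with no minimum fold. With each library left out in turn the counts were 3 to 4 on IR day 2, 4 to 6 on day 3, 4 to 7 on day 5, 1 to 2 for IR+VE day 3 and 0 to 1 for the test between days. Quantile normalization moved the split of all calls on IR day 3 from 276 higher and 5538 lower to 1194 and 1472, and mitochondrial removal to 620 and 3546. For IR+VE day 3 the split was 3418 and 6, and 883 and 361 with quantile normalization. Depth is unknown, and values under 1 TPM are the least certain.

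With the replicate number as a block, where the numbers pair the libraries, no member call changed (1 in 8C-VE against ENR, 1 in 8C-E against 8C-VE, 0 in 8C-V against 8C-VE and 1 in 8C-V against 8C). Where the numbers were not taken to pair them, same-numbered libraries still had a mean r of 0.25 in 8C against ENR, 0.41 in 8C against 8C-VE and 0.47 in 8C-E against 8C, with 6, 4 and 4 of 7 correlating best with their own number. In such comparisons the block gave 4 members for the withdrawal of Pexmetinib, GSK-3 Inhibitor XV or bFGF, which then rests on 8C libraries 1 to 3, and 1 for ENR+VE, Ccl28 (-1.04, adjusted p = 0.000494). Crossing the numbers of Normal, chosen after seeing the data, gave 1 member on IR day 1 and 3 on IR day 2.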
